A study of Mus musculus with 6 samples.

Results

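The genes described here belong to the BCL2 family, the proteins that decide whether the mitochondrial outer membrane stays intact or is opened during apoptosis. Of the 10 genes chosen by name (Bcl2, Bcl2l1, Bcl2l2, Mcl1, Bax, Bak1, Bcl2l11, Bad, Bid and Bbc3), 9 had a probe set assigned to a single gene, 1 each, among the 19661 genes measured. Bax had none in the platform annotation used and was not analysed here. Expression was measured in megakaryocyte-erythroid progenitors from the bone marrow of Fog1ki/ki mice, homozygous for a knock-in at Fog1, and of Fog1+/+ mice with the intact gene, both on a B6.129 background. Fog1 (Zfpm1) encodes a cofactor of the transcription factor GATA1. What the knock-in alters is not in the labels. As background from the literature, it disturbs binding of FOG1 to the NuRD chromatin complex. The arrays compare RNA levels between the genotypes, and whether a gene depends directly on that binding was not tested. The cells had been sorted as negative for lineage markers, Sca1 and CD34, positive for Kit and low for FcgrII/III. Each genotype had 3 arrays, 1 per biological replicate. Neither the age of the mice nor how many contributed to an array is stated, so p-values measure the spread between these samples.

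BCL2 family proteins fall into groups with opposed roles. The survival proteins BCL2, BCL-XL (from Bcl2l1), BCL-W (from Bcl2l2) and MCL1 hold the effectors BAX and BAK in check. When released, the effectors form pores through which cytochrome c leaves the mitochondrion and starts the caspase cascade. The BH3-only proteins BIM (from Bcl2l11), BAD, BID and PUMA (from Bbc3) sense stress or loss of growth factor and either block the survival proteins or activate the effectors. In red cell formation, BCL-XL is known to protect late erythroblasts, and its gene is induced by erythropoietin through STAT5 and by GATA1, while MCL1 is needed by stem cells and early progenitors. Much of the family is regulated on the protein (BAD by phosphorylation, BID by cleavage, MCL1 by rapid turnover), which arrays do not measure. Splice forms with opposed activity, such as those of Bcl2l1, were summarised into 1 value per gene.

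The bases before 3 transcription starts are shown because the genes concerned, Bcl2, Bcl2l1 and Bak1, had the lowest unadjusted p among the survival and effector members, and because GATA1 binds DNA at the letters GATA. The windows hold the 250 bases upstream of RefSeq starts on GRCm38.p6, on the gene's own strand (all 3 genes lie on the minus strand), and capitals mark a match to GATAA.
Bcl2 (chr1:106714291-106714540): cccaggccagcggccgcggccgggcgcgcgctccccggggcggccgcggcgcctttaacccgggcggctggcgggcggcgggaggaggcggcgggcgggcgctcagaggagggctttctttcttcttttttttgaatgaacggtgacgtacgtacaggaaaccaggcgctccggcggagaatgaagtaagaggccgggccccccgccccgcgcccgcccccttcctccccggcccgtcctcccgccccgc
Bcl2l1 (chr2:152828490-152828739): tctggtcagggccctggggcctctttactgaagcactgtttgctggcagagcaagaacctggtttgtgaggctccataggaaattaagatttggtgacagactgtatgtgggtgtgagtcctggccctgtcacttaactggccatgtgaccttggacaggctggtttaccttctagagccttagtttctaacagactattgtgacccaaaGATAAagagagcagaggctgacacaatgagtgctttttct
Bak1 (chr17:27028628-27028877): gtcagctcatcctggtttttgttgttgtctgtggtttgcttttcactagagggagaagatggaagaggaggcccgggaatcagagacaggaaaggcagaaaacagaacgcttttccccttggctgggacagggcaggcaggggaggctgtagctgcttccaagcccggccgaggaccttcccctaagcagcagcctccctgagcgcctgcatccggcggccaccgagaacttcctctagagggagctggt
The Bcl2l1 window shown belongs to 1 of its 3 annotated starts and holds a single GATAA, whose first base lies 40 bases before the start. The windows of its other starts hold no GATAA, and which start the array value reflects was not tested. All 10 genes had at least 1 window, 16 in all, and the Bcl2l1 window shown was the only one of the 16 with GATAA on either strand. Over 32851 windows of the same length, 22.6% held GATAA. Other sequences with the letters GATA, such as GATAG, were not searched. The Bid window, for example, holds ctatc, which is GATAG on the opposite strand. The STAT motif TTCNNNGAA, which reads the same on both strands, was in 0 of the 16 windows and in 7.0% of all windows. The members' windows were rich in G and C, with a median of 64.6% against 52.4% over all windows, and the Bcl2 window stood at 74.8%, the Bak1 window at 58.4% and the Bcl2l1 window shown at 48.4%. These matches describe letters and say nothing of binding.

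The arrays had medians of 6.02 to 6.15, and correlations across genes, which are not independent of each other, were 0.988 to 0.992 within Fog1ki/ki, 0.993 to 0.994 within Fog1+/+ and 0.988 to 0.991 from one genotype to the other. Replicate 3 of each genotype had low Y-linked values, with Eif2s3y at 3.46 in Fog1ki/ki and 3.21 in Fog1+/+, against 9.29 or more in the other arrays. Xist was 11.03 and 11.02 in these arrays, and it was also 9.13 in Fog1ki/ki replicate 2, whose Y-linked values were high.

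None of the members passed the test between genotypes. In limma, 0 of 9 rose (beside 0.376% of all genes) and 0 fell (beside 0.397%) at an adjusted p under 0.05, where 152 of 19661 genes, or 0.773%, were called. That count over all genes was 82 without Fog1ki/ki replicate 2, and 60, 83 and 60 without Fog1+/+ replicates 1, 2 and 3. Before adjustment, 3 members had a higher level and 1 a lower level at p under 0.05, beside 9.57% of all genes in either direction. In 4 of the 9, Fog1ki/ki and Fog1+/+ arrays were fully separate, 3 with higher values in Fog1ki/ki (beside 8.31% of all genes) and 1 with lower values (beside 6.53%), together beside 14.8% of all genes. These 4 were the survival genes Bcl2, Bcl2l1 and Bcl2l2, with higher values in Fog1ki/ki, and the effector gene Bak1, with lower values. The median log2 difference (Fog1ki/ki minus Fog1+/+) was 0.31 over the 4 survival genes, -0.58 for Bak1 and -0.04 over the 4 BH3-only genes, against 0.02 over all genes. For each of the 9, the 95% interval of the difference lay within 2-fold in both directions, as it did for 98.2% of all genes.

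**Figure D1:**
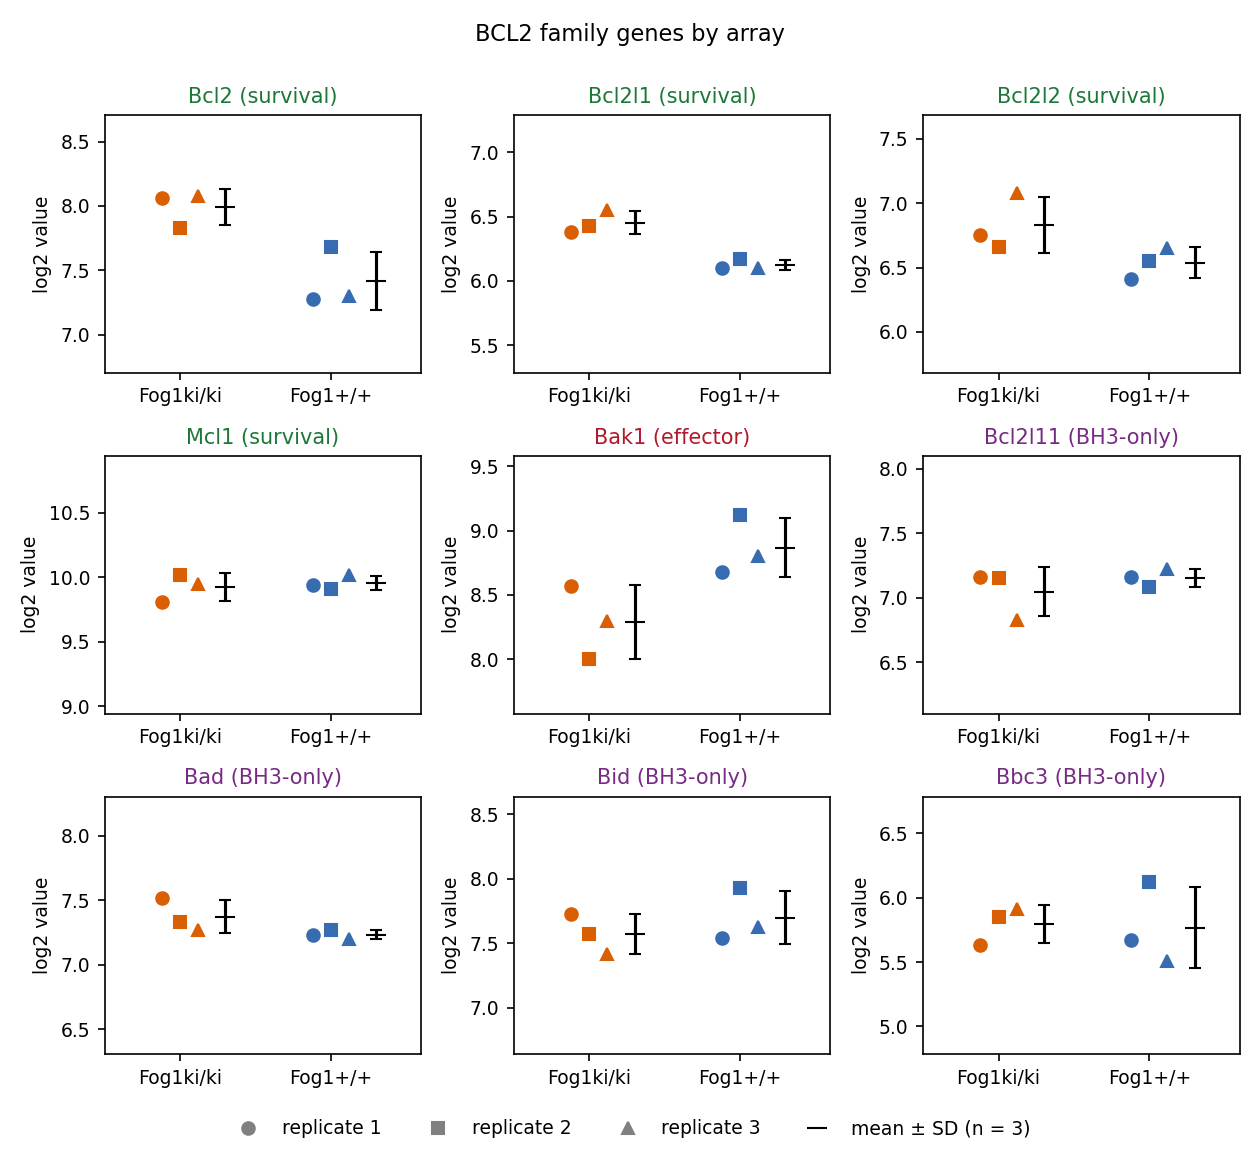
Log2 values (vertical axis, each panel spanning the same 2 log2 units) of the 9 measured BCL2 family genes in 3 Fog1ki/ki arrays (left, orange) and 3 Fog1+/+ arrays (right, blue), with symbols for the replicate and the mean ± SD in black. Bcl2, Bcl2l1 and Bcl2l2 lie higher in Fog1ki/ki and Bak1 lower with no overlap, by gaps of 0.01 to 0.21, and the genotypes meet or overlap in the other panels.

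Bcl2, the founding survival gene of the family, measured 8.06, 7.83 and 8.08 on the log2 scale in the Fog1ki/ki arrays, against 7.28, 7.68 and 7.30 in the Fog1+/+ arrays. The lowest Fog1ki/ki array, replicate 2, was 0.15 above the highest Fog1+/+ array, which was also numbered 2. The means were 7.99 ± 0.14 and 7.42 ± 0.23 (SD, n = 3 each), a log2 difference of 0.57 (SE 0.13; 95% interval 0.27 to 0.87) or 1.49-fold. This did not pass over all genes (limma adjusted p = 0.132), although its size exceeded that of 98.2% of genes. It ranged from 0.50 to 0.70 when each array was left out in turn. The limma adjusted p was lowest without Fog1+/+ replicate 2, at 0.0710. With any other single array left out, the limma adjusted p was 0.1723 to 0.4335.

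Bcl2l1, the gene of BCL-XL, measured 6.38, 6.43 and 6.55 in Fog1ki/ki and 6.10, 6.17 and 6.10 in Fog1+/+. The genotypes were separated by 0.21, the widest gap among the members, and each genotype was tightly grouped. Its mean log2 value was 6.45 ± 0.09 in Fog1ki/ki and 6.12 ± 0.04 in Fog1+/+ (SD, n = 3 each), a difference of 0.33 (SE 0.09, 95% interval 0.13 to 0.54). With a limma adjusted p of 0.218 it did not pass. This is the gene whose upstream window above, at 1 of its 3 annotated starts, holds the GATAA.

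Bcl2l2, the gene of BCL-W, measured 6.75, 6.66 and 7.08 in Fog1ki/ki, against 6.41, 6.55 and 6.65 in Fog1+/+. Only 0.01 separated the genotypes, and Fog1ki/ki replicate 3 was the high array. The log2 difference was 0.29 (SE 0.13, 95% interval 0.00 to 0.58, limma adjusted p = 0.516), and it was 0.17 without Fog1ki/ki replicate 3.

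Mcl1, the survival gene with the fastest protein turnover, showed no such separation. Its values were 9.81, 10.02 and 9.95 in Fog1ki/ki and 9.94, 9.91 and 10.02 in Fog1+/+, so that the arrays interleaved. The log2 difference was -0.03 (SE 0.10, 95% interval -0.25 to 0.19, limma adjusted p = 0.956), an interval that runs from a 1.19-fold lower to a 1.14-fold higher level.

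Bak1, the one effector gene measured, had the lower values in Fog1ki/ki. It stood at 8.57, 8.0 and 8.30 in Fog1ki/ki arrays, against 8.68, 9.12 and 8.80 in Fog1+/+ arrays. All Fog1ki/ki arrays lay below all Fog1+/+ arrays, by 0.11 at the nearest, where replicates 1 of both genotypes almost met. The means were 8.29 ± 0.29 and 8.87 ± 0.23 (SD, n = 3 each), a log2 difference of -0.58 (SE 0.16, 95% interval -0.95 to -0.21) or 1.49-fold lower, with a limma adjusted p of 0.239. Leaving out each array in turn gave -0.72 to -0.43. Bak1 was also variable within genotypes, with a pooled SD above that of about 90.9% of genes, whereas Bcl2l1 was at the 10.4th percentile.

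The BH3-only genes gave no separation in either direction. Bcl2l11, which encodes BIM, the activator best known for deleting haematopoietic cells deprived of cytokine, measured 7.16, 7.15 and 6.83 in Fog1ki/ki and 7.16, 7.08 and 7.22 in Fog1+/+. Only Fog1ki/ki replicate 3 lay outside the Fog1+/+ range, and the log2 difference was -0.11 (SE 0.11, 95% interval -0.36 to 0.15, limma adjusted p = 0.838). Without that array it was 0.00.

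Bad, whose product is held inactive by growth factor signalling, had log2 values of 7.52, 7.33 and 7.27 in Fog1ki/ki, against 7.23, 7.27 and 7.20 in Fog1+/+. The genotypes met at 7.27, and Fog1ki/ki replicate 1 stood highest. The difference was 0.14 (SE 0.10, 95% interval -0.08 to 0.36, limma adjusted p = 0.717), and 0.07 without Fog1ki/ki replicate 1. Bid, whose product links death receptors to mitochondria once cleaved by caspase 8, measured 7.73, 7.57 and 7.42 in Fog1ki/ki and 7.54, 7.93 and 7.63 in Fog1+/+, and the arrays interleaved. Its difference was -0.13 (SE 0.13, 95% interval -0.42 to 0.17, limma adjusted p = 0.825), and -0.01 without Fog1+/+ replicate 2.

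Bbc3, the gene of the p53 target PUMA, measured 5.63, 5.85 and 5.91 in Fog1ki/ki, against 5.67, 6.12 and 5.51 in Fog1+/+. The Fog1ki/ki arrays fell wholly inside the Fog1+/+ range, which was the widest of any member in either genotype at 0.61. The log2 difference was 0.03 (SE 0.16, 95% interval -0.33 to 0.39, limma adjusted p = 0.975).

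**Figure D2:**
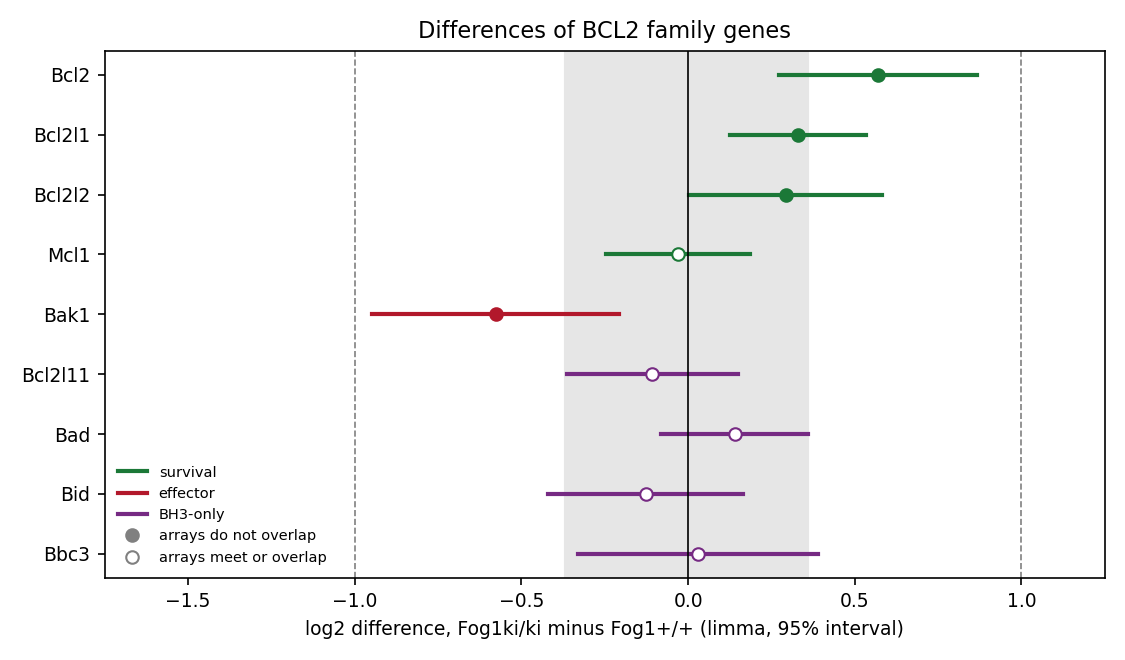
Log2 differences, Fog1ki/ki minus Fog1+/+ (points, horizontal axis), with limma 95% intervals (bars) for each BCL2 family gene, coloured by role. Filled points mark genes whose arrays do not overlap, the grey band holds the central 95% of all genes (-0.37 to 0.36), and dashed lines mark 2-fold. Bcl2 and Bak1 lie outside the band on opposite sides, and the BH3-only genes lie within it.

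Bcl2 and Bak1 were the members with differences outside the central 95% of all genes. Bcl2l1 and Bcl2l2 lay within that range but near its upper edge. The 10 genes lie on chromosomes other than 8, which carries Zfpm1.

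Genes that work with the family were described from 5 further lists, and 1 of the 66 measured genes passed (limma, beside 0.773% of all genes). Before adjustment, 5 of the 66 were higher and 7 lower at p under 0.05 (limma), beside 9.57% of all genes in either direction. The genotypes did not overlap in 12 of the 66, beside 14.8% of all genes. Other BCL2-related genes were 12 of 17 listed, and 0 passed (limma; before adjustment, 1 higher and 0 lower at p under 0.05). Bcl2l15, a distant relative of the family, had the smallest p, with 7.60, 7.54 and 6.90 in Fog1ki/ki, against 6.53, 6.72 and 6.60 in Fog1+/+. The difference, 0.73 on the log2 scale with SE 0.18 (limma adjusted p = 0.149), was larger than that of any member, and the genotypes did not overlap. Bok, an effector-like relative, differed by -0.12 (limma adjusted p = 0.772). The median of this list was 0.02.

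Downstream of the mitochondrion, 18 of 21 listed genes of the caspase machinery were measured and 0 passed (limma, median -0.09). Before adjustment, 1 was higher and 2 lower at p under 0.05 (limma). Over all genes, 0.773% passed and 9.57% had an unadjusted p under 0.05 in either direction (limma). Vdac1, a channel of the outer mitochondrial membrane, had 9.98, 9.86 and 9.94 in Fog1ki/ki and 10.29, 10.18 and 10.17 in Fog1+/+. Here too the genotypes were separate, but the log2 difference was small, at -0.29 (SE 0.09, limma adjusted p = 0.300). Htra2, a mitochondrial protease that counters caspase inhibitors, had one of -0.25 (limma adjusted p = 0.367). Among 10 death receptor pathway genes, 0 passed and 1 was higher at an unadjusted p under 0.05 (limma, median 0.05). That gene was Cflar, an inhibitor of caspase 8 activation, at 9.15, 9.38 and 9.22 in Fog1ki/ki, against 9.12, 8.76 and 8.61 in Fog1+/+. Its difference was 0.42 (SE 0.14, limma adjusted p = 0.332), and Casp8, which encodes caspase 8, had one of 0.13 (limma adjusted p = 0.758).

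Upstream, 18 of 21 listed regulators were measured, with a median of -0.08. In limma, 1 rose (beside 0.376% of all genes) and 0 fell (beside 0.397%). Before adjustment, 2 were higher and 5 lower at p under 0.05 (limma), beside 9.57% of all genes in either direction. The gene that rose was Gata2, a transcription factor of stem and mast cell precursors, 1.14 higher on the log2 scale (SE 0.16; limma adjusted p = 0.0164). It no longer passed without Fog1ki/ki replicate 3 (limma adjusted p = 0.0579) or without Fog1+/+ replicate 1, 2 or 3 (0.0876, 0.0629 and 0.0635), while the log2 difference ran from 0.97 to 1.31 with each array left out. The 5 with lower values before adjustment, none of which passed, were Kit (-0.38), Stat3 (-0.53), Trp53inp1 (-0.34), Pim1 (-0.29) and Gata1, and in each the genotypes did not overlap. Gata1, known as an inducer of Bcl2l1, measured 8.47, 8.09 and 8.24 in Fog1ki/ki, against 8.54, 8.56 and 8.57 in Fog1+/+ (log2 difference -0.29, SE 0.11, limma adjusted p = 0.435). Bcl2l1 had the higher values in Fog1ki/ki and did not pass either, and a link between these genes was not tested. Of 8 genes that control turnover of MCL1 and other family proteins, 0 passed and 0 had an unadjusted p under 0.05 (limma, median -0.08). The smallest p belonged to Cul5, a ubiquitin ligase scaffold, at -0.22 (limma adjusted p = 0.668), and Marchf5, a mitochondrial ubiquitin ligase, at -0.15 (limma adjusted p = 0.708).

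**Figure D3:**
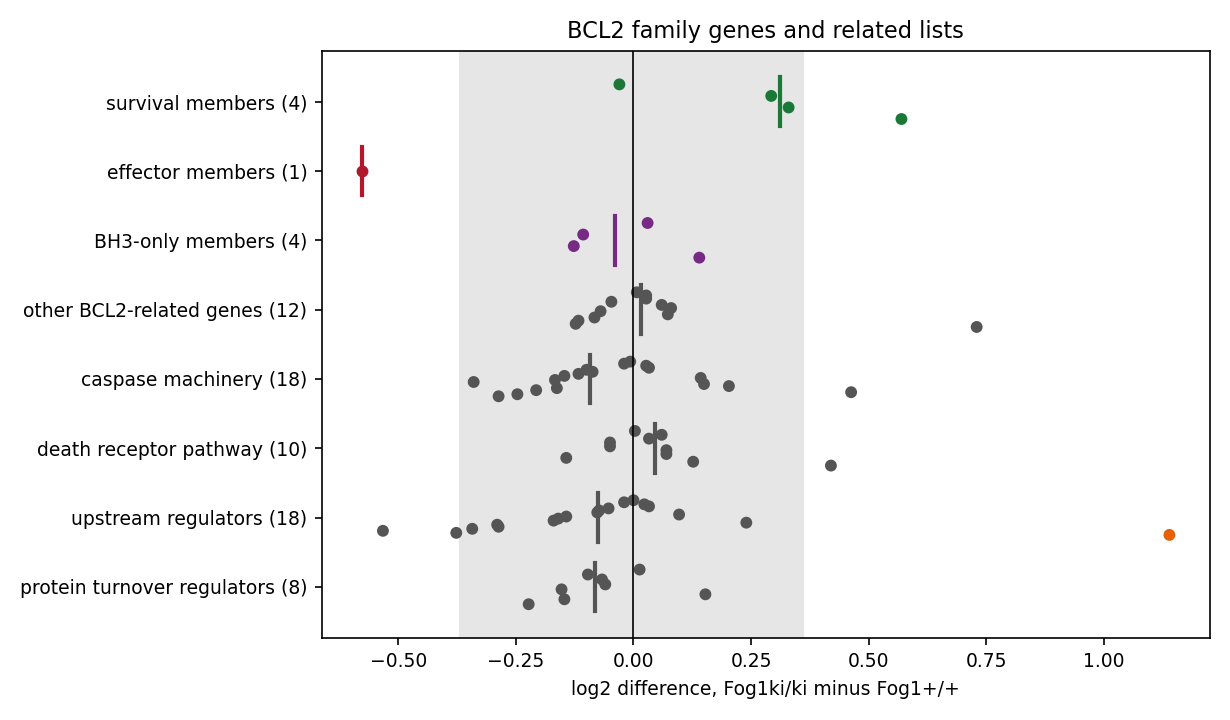
Log2 differences, Fog1ki/ki minus Fog1+/+ (horizontal axis), of every measured gene in the 3 BCL2 family roles and in 5 lists of related genes, with the number measured in parentheses, the list median as a vertical bar, and the central 95% of all genes as a grey band. The orange point is Gata2 at 1.14, the one gene past the threshold; the survival genes have a median of 0.31 and the 5 related lists have medians between -0.09 and 0.05.

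Levels of cell type markers are given beside these comparisons, since in sorted bulk cells a change in the share of a cell type and a change in RNA per cell cannot be told apart. The 8 erythroid markers measured, among them Klf1, had mean log2 values of 8.67 to 8.92 per array in Fog1ki/ki and 8.79 to 8.94 in Fog1+/+, and 0 of them passed (0 at an unadjusted p under 0.05, limma). The 10 mast cell markers had array means of 5.69 to 6.14 in Fog1ki/ki and 5.23 to 5.28 in Fog1+/+, and 1 of them, the IgE receptor chain Ms4a2, rose (log2 difference 3.79, with a limma adjusted p of 0.000731, and 3.48 to 4.16 with each array left out). Over all genes, 0.376% rose in limma. Before adjustment 3 of the 10 mast cell markers were higher and 1 lower at p under 0.05 (limma), beside 9.57% of all genes in either direction. The list's largest differences were those of Ms4a2 and Fcer1a (1.91, limma adjusted p = 0.147), Kit differed the other way (-0.38, limma adjusted p = 0.233, arrays not overlapping), and the median over the 10 was 0.17. Differences were 0.53 for Cpa3, 0.21 for Cma1, 0.21 for Mcpt4 and 0.13 for Tpsab1, none of which passed. Hdc, Tpsb2 and Mrgprb2 differed by 0.06 to 0.07. Mrgprb2, a marker of mature connective tissue mast cells, was dimmer than the lower quartile of every array (4.81 to 4.92) in both genotypes, at 3.77, 3.68 and 3.50 in Fog1ki/ki and 3.69, 3.54 and 3.55 in Fog1+/+. Array means were also wholly higher in Fog1ki/ki for 5 of the other lists, which are not all separate shifts. The 6 basophil markers (5.38 to 6.12 against 5.09 to 5.15) share Fcer1a with the mast cell list, and their other large difference was that of Mcpt8 (1.03). Among the 7 megakaryocyte markers (6.58 to 6.79 against 6.41 to 6.48), Pf4 differed most (0.97), and the median was 0.09. The 7 stem cell markers had means of 5.64 to 5.72 against 5.55 to 5.59, and before adjustment 2 were higher and 1 lower at p under 0.05 (limma). The lower one was Slamf1, which had the smallest p of that list (-0.49, limma adjusted p = 0.196, arrays not overlapping). The higher ones were Hlf (0.36, limma adjusted p = 0.292) and Meis1 (0.60, limma adjusted p = 0.358), and their arrays did not overlap either. The 7 B lymphoid markers (5.66 to 5.76 against 5.51 to 5.64) and the 7 monocyte and macrophage markers (5.04 to 5.09 against 4.97 to 5.03) were barely apart, 3 genes of each list lay below the lower quartiles in both genotypes, and the lower quartiles themselves were 4.85 to 4.92 in Fog1ki/ki and 4.81 to 4.86 in Fog1+/+. None of the genes in those 5 lists passed (0 in limma, beside 0.773% of all genes). Before adjustment, 7 were higher and 1 lower at p under 0.05 (limma), beside 9.57% of all genes in either direction. The neutrophil and T and NK lists overlapped between genotypes, and 0 of the 9 marker lists were wholly lower in Fog1ki/ki. The part of such cells in the values of Bcl2, Bcl2l1, Bcl2l2 and Bak1 was not tested.

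Without both arrays numbered 3, those with low Y-linked values, the log2 differences were 0.47 for Bcl2, 0.27 for Bcl2l1, 0.23 for Bcl2l2 and -0.61 for Bak1, and none of the members passed (0 of 9 in limma).

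**Figure D4:**
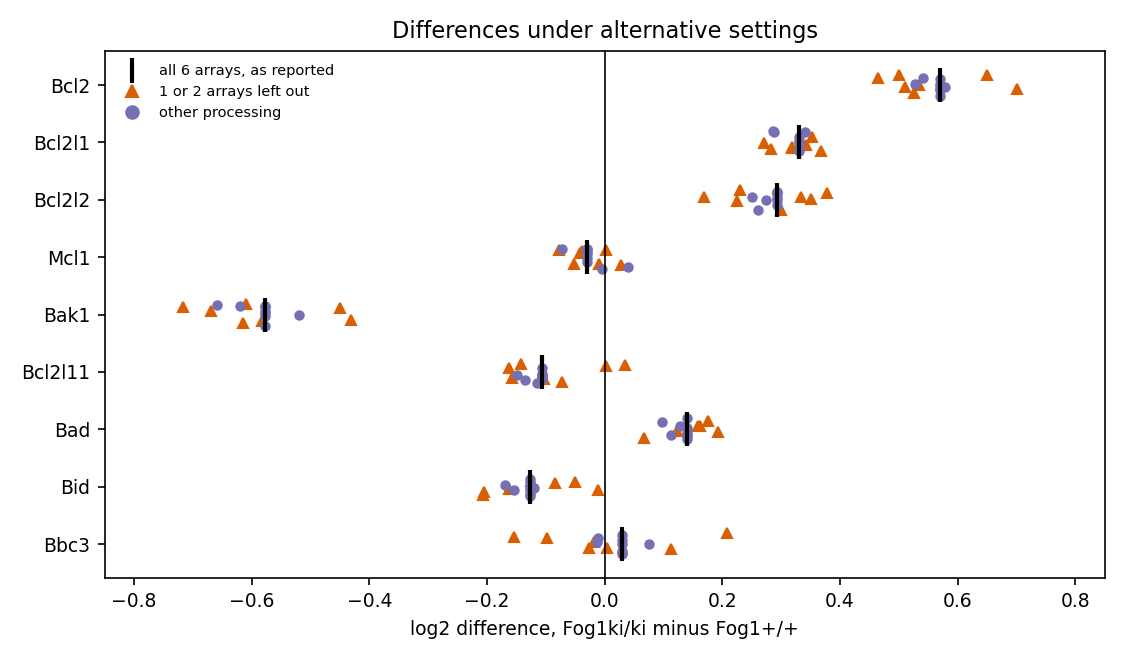
Log2 differences, Fog1ki/ki minus Fog1+/+ (horizontal axis), of each BCL2 family gene with all 6 arrays (black bar), with 1 or 2 arrays left out (orange triangles) and under other processing (purple circles), with points spread vertically for legibility. Bcl2 stays between 0.47 and 0.70 and Bak1 between -0.72 and -0.43, while Mcl1, Bcl2l11 and Bbc3 have settings on both sides of 0.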

How the data were processed

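Total RNA was extracted with Trizol, amplified with the NuGEN WT-Ovation Pico system and hybridised as biotin-labelled cDNA to 1-colour arrays, per the labels' protocols. The deposited log2 values (scale read from the values) are those of the authors, who summarised probes by RMA, per the submitters' processing notes, with no software or settings stated there. The platform annotation assigned 20777 of 25668 probe sets to 1 gene. The probe set with the highest mean represented each of 564 genes with several. The comparison used limma 3.58.1 under R 4.3.3 (linear model with genotype alone, eBayes, two-sided p, Benjamini-Hochberg over 19661 genes, threshold 0.05), with no filter on dim genes. Exact permutation of 3 against 3 arrays has a smallest p of 0.1 and was not used. The number of arrays limits the precision. Replicate numbers are not stated to pair animals, and the deviations of same-numbered arrays from their genotype means correlated at 0.07, -0.01 and 0.13. Even so, 4 of the 6 arrays correlated best with the array of their own number in the other genotype. Both arrays numbered 3 also had low Y-linked values. Same-numbered arrays were not treated as pairs, and a replicate block was run as an alternative. The members and lists were chosen with earlier results of these data known. All 9 measured members are named. From each of the 5 lists of related genes, those past the threshold are named, or failing that the 2 with the smallest p. Other names, among them those of the cell type markers, were chosen with the values known. Scripts were tested on simulated data. Promoter windows are from RefSeq (GRCm38.p6). Figures used Python 3.11.15 and matplotlib 3.10.9.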

Additional observations from a re-analysis of the deposited data

How the results depend on the processing

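Under 17 alternatives (other scaling, filters, probe set handling, variance models, a block, arrays left out, a looser threshold), 0 of 9 members passed in limma in any, and 6 kept their direction in all of them. The direction turned for 3 members with differences near 0. Mcl1 turned to 0.039 with quantile normalization repeated, 0.028 without Fog1ki/ki replicate 1 and 0.002 without Fog1+/+ replicate 3 (-0.077 to 0.028 with 1 array left out). Bcl2l11 turned to 0.002 without Fog1ki/ki replicate 3 (-0.163 to 0.002 with 1 array left out) and 0.035 without both arrays numbered 3. Bbc3 turned to -0.011 with quantile normalization repeated, -0.013 with arrays centred on their medians, -0.027 without Fog1ki/ki replicate 3, -0.018 without Fog1+/+ replicate 1, -0.098 without Fog1+/+ replicate 3 (-0.098 to 0.207 with 1 array left out) and -0.155 without both arrays numbered 3. The cause was not tested.

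The count of genes past the threshold, 152 with all arrays, was 82 without Fog1ki/ki replicate 2, 60, 83 and 60 without Fog1+/+ replicates 1, 2 and 3, and 24 without both arrays numbered 3, in which fewer samples entered; with 1 array left out it ran from 60 to 134. With the replicate block the count was 133, and Bcl2 and Bak1 had limma adjusted p of 0.212 and 0.345. In deviations from the genotype means, 4 of the 6 arrays correlated best with the array of their own number in the other genotype. The median over the survival members ran from 0.23 to 0.36 with 1 array left out, and that over the BH3-only members from -0.09 to 0.07. None of the 9 members (0) had a mean below the lower quartiles of the arrays in both genotypes.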
